A study of Mus musculus with 24 samples.

Results

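Mouse embryonic fibroblasts that lack CHIP were profiled at 2 time labels without any heat shock, and the 240 min arrays were compared with the 30 min arrays. The members are the 6 arrays that the labels name as CHIP null controls, 3 for each time, out of 24 arrays in the series. The cells came from embryos of C57BL6 CHIP(+/-) parents taken on day 13.5. They were grown with β-mercaptoethanol at 37 °C, and carried the CHIP(-/-) genotype in all 6 samples. The other groups used here are CHIP(+/+) wildtype controls kept at 37 °C and CHIP(-/-) cells heated at 43 °C, each with 3 arrays at 30 min and 3 at 240 min. The time of a control is the time label it shares with the heated cultures. Whether a 240 min control is the same culture as a 30 min control, or a separate one, is unstated in the labels. Each array carried Cy5-labelled RNA of the cells against Cy3-labelled Universal Mouse Reference RNA, a pool of RNA from mouse cell lines. Every value below is a log2 ratio of Cy5 over Cy3, and a change is the 240 min mean minus the 30 min mean. The labelling protocol speaks of 3 biological replicates for each condition, but no label ties a replicate to an embryo. The p-values therefore measure the spread between these arrays.

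Stub1 encodes CHIP, a co-chaperone and ubiquitin ligase that binds HSP70 and HSP90 and marks unfolded client proteins for the proteasome. The series asks how CHIP and the death-associated protein DAXX act on the p53 apoptotic programme under heat stress, and the unheated controls are its baseline. Fibroblasts in culture respond to time, density and medium through well-known programmes. SREBP2 drives sterol synthesis when membrane cholesterol is low, ATF4 drives amino acid transport and tRNA charging under amino acid shortage, and serum response factor (SRF) with its MRTF coactivators drives actin and contractile genes. BMP signalling through SMADs drives the ID genes.

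The time labels differ in more than time. All 30 min controls belong to 1 scan set and all 240 min controls to another, so that the time label and the scan set cannot be told apart. The 30 min CHIP null controls were all on 1 slide and the 240 min ones on 2 other slides. The 240 min arrays were brighter. The median Cy3 signal minus background was 11.1 to 12.2 scanner units at 30 min and 23.0 to 25.9 at 240 min. That of Cy5 was 6.07 to 6.54 and 9.25 to 10.2, above a median Cy5 background of 36 to 37.5 units. The share of probes well above background in Cy5 was 40.5% ± 1.33 (SD, n = 3) at 30 min and 47.7% ± 1.07 (SD, n = 3) at 240 min (exact permutation test, 2-sided, p = 0.1, the smallest that 3 against 3 arrays allow). Replicate arrays correlated at 0.990 to 0.994 over the genes tested, and arrays of different time labels at 0.956 to 0.973.

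The deposited value table assigns the times the other way round. Each of its control columns matched the scanner file of the other time label, with a correlation of at least 0.9996 for every column and at most 0.9004 with the scanner file of its own label. The 240 minus 30 min difference of the CHIP null controls in that table correlated at -0.9986 with the difference in the scanner files over 28058 probes. All directions below follow the labels of the scanner files, and those of the control comparisons turn if the labels of the value table are the right ones. The columns of the heated samples were not matched here.

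Many genes differed between the time labels, most of them by small amounts. Of 13486 genes tested, 6559 (48.6%) passed an adjusted p of 0.05, with 2567 (19%) higher and 3992 (29.6%) lower at 240 min. Of these, 595 (4.41% of the genes tested) moved more than 1.5-fold, 107 (0.793%) up and 488 (3.62%) down, and 38 (0.282%) moved more than 2-fold, 5 (0.0371%) up and 33 (0.245%) down. Among the genes tested, 1047 were well above background on none of the 30 min arrays. When only genes well above background on all 6 arrays were kept, 5329 were called and 397 of them moved more than 1.5-fold. The ranges of the 3 and 3 arrays did not overlap for 7553 of 13423 genes with a value on all 6 arrays (56.3%). The balance of directions depends on the scaling: 39.1% of the genes called were higher in the main values, 50.7% by the ratio of the Feature Extraction software, 49.9% from Cy5 alone and 46.1% after median centring. Beyond 1.5-fold the Feature Extraction ratio gave 479 higher and 283 lower. For that reason most counts of called members are followed by how many members were called the same way under 5 scalings (the main values, a smaller background offset, median centring, the Feature Extraction ratio and Cy5 alone). Under all 5, 665 genes were higher and 511 lower. Counts of list members in the CHIP null controls below are to be read beside these numbers and the shares of 19% higher and 29.6% lower. The median change over all genes was -0.03 in the main values and lay between -0.03 and 0.03 in all 5.

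Genes of sterol and fatty acid synthesis were higher at 240 min. Of 33 measured members, 24 rose and 1 fell (19% and 29.6% of all genes), 22 rose under all 5 scalings, and the median change was 0.51. Idi1, the isomerase that makes the allylic isoprenoid unit, read 0.55, 0.54 and 0.56 at 30 min and 1.65, 1.46 and 1.63 at 240 min, a 2.04-fold rise (log2 change 1.03, SE 0.0851, adjusted p = 5.19e-10). The groups lay far apart, and the 3 arrays at 30 min were almost identical. Scd2, a stearoyl-CoA desaturase that makes monounsaturated fatty acids, read -0.26, -0.15 and -0.37 and then 0.71, 0.79 and 0.64 (1.96-fold, log2 change 0.97). Msmo1, a C4-methylsterol oxidase late in the pathway, rose from 1.23, 1.20 and 1.24 to 2.12, 1.91 and 2.06. No array of 1 time reached the range of the other in any of these 3 genes. The rise ran along the pathway, from Hmgcs1 (0.67) through Fdps (0.61), which builds farnesyl pyrophosphate, Sqle (0.71), Lss (0.80) and Cyp51 (0.72), and it included the ATP-citrate lyase Acly (0.66). These additional members are named to show the order of the pathway and were chosen after their values were seen. Ebp, a sterol isomerase, was the member that fell (-0.33). The regulator gene Srebf2 had a change of 0.10 that did not pass, and the rise of Srebf1 by 0.15 lost its call without 30 min replicate 1 or 3 or 240 min replicate 2 or 3 (adjusted p up to 0.132). The same list had 27 members higher and 1 lower in the wildtype controls (27.9% and 35.6% of all genes), with a median change of 0.63, and 26 higher and none lower in heated CHIP null cells (24.3% and 33.7% of all genes), with a median of 0.48. The change in CHIP null was below that in wildtype for 9 members and above it for none by the test of the difference, which called 8.92% of all genes lower and 9.14% higher. Idi1 was among the 9, at 1.03 in CHIP null and 1.54 in wildtype (difference adjusted p = 0.00280). Of the 9 differences, 3 were called under all 5 scalings.

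RNA of the ATF4 target genes of the amino acid response was higher at 240 min as well. Of 29 measured targets of ATF4, the transcription factor translated when amino acids run short, 25 rose and none fell. Over all genes, 19% rose and 29.6% fell. Under all 5 scalings 15 of the list rose, and its median change was 0.35. Trib3, a pseudokinase that feeds back on ATF4, showed the largest rise of any named gene, from 0.77, 0.80 and 0.67 to 2.02, 2.19 and 1.97 (2.49-fold, log2 change 1.31, SE 0.0720, adjusted p = 1.82e-13). A different Trib3 probe rose by 0.67. Slc7a3, a transporter of cationic amino acids, went from 1.28, 1.02 and 1.08 to 2.12, 1.81 and 2.10. Chac1, which degrades glutathione, went from 1.45, 1.29 and 1.33 to 2.07, 2.19 and 2.18, and Aldh1l2, a mitochondrial folate enzyme, from 0.49, 0.51 and 0.48 to 1.36, 1.18 and 1.31. All 4 genes had separate ranges at the 2 times and were called under all 5 scalings. Atf4 itself rose by 0.41 and Ddit3, which encodes CHOP, by 0.66. The tRNA synthetase genes Tars (0.66), Eprs (0.63), Sars (0.51), Cars (0.36) and Aars (0.28), named after their values were seen, rose together with the serine pathway gene Psph (0.71). Phgdh, the first enzyme of serine synthesis, had a change of -0.13 that did not pass. Wildtype controls had 21 members higher and 1 lower (27.9% and 35.6% of all genes), with a median of 0.33. Heated CHIP null cells had 24 higher and none lower (24.3% and 33.7% of all genes), with a median of 0.40. The difference between genotypes was higher in CHIP null for 5 members and lower for 3 (9.14% and 8.92% of all genes). Outside the list, Gpt2, a mitochondrial alanine aminotransferase, went from -0.52, -0.52 and -0.44 to 0.41, 0.47 and 0.52 (1.95-fold), a larger change than the 0.45 of wildtype (difference adjusted p = 4.98e-05).

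Promoter sequence was examined for the lists whose transcription factors have a well-known element, in the 250 bases before each RefSeq start site and on both strands. The C/EBP-ATF response element that ATF4 binds, searched as TGATGNAA, was present for 8 of the 23 ATF4 list members with a promoter entry (34.8%), against 1056 of all 27025 genes with one (3.91%). The following 3 of the 8 promoters are shown as examples, chosen after the matches were seen, with the match in capitals and the coordinates on GRCm38.p6. Chac1 lies at chr2:119350992-119351241, plus strand, and its match runs from base -193 to -186 counted from the start site. Asns, asparagine synthetase, lies at chr6:7693210-7693459, minus strand, and its match runs from base -23 to -16 (change 0.35). Slc7a11, the cystine transporter, lies at chr3:50443614-50443863, minus strand, and holds 2 matches in opposite orientation (change 0.32, not well above background on any 30 min array).
Chac1: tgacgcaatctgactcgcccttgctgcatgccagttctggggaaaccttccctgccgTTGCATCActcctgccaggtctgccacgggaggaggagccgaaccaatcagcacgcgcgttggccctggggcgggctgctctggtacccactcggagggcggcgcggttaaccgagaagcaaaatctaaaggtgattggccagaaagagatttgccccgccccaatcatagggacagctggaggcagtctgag
Asns: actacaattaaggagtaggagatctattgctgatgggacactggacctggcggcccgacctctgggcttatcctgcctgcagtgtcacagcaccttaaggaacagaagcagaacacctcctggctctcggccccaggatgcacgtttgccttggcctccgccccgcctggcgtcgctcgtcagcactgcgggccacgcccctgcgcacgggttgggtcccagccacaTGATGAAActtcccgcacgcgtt
Slc7a11: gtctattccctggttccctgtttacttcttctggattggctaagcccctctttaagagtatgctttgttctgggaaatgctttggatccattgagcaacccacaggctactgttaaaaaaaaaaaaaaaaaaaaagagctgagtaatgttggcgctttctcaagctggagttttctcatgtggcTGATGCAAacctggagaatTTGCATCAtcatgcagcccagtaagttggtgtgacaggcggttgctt
The sterol regulatory element searched as TCACNCCAC was found for 1 of 23 sterol list members with an entry (4.35%), against 1.22% of all genes. That gene is Hmgcs1, a synthase early in the mevalonate pathway, which went from -0.62, -0.75 and -0.80 to 0.02, -0.12 and -0.04; it is printed from chr13:119690101-119690350, plus strand. The CArG box that SRF binds was found for 4 of 20 contractile and SRF genes with an entry (20%), against 1.62% of all genes. The promoter of Myl9, from chr2:156775214-156775463, plus strand, is shown for it because Myl9 was among the genes that fell furthest in the next group.
Hmgcs1: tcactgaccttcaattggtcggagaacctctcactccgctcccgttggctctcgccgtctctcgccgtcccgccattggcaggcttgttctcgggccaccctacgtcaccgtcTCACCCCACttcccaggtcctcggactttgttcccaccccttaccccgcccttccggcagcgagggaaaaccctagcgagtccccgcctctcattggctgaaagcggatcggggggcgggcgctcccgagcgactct
Myl9: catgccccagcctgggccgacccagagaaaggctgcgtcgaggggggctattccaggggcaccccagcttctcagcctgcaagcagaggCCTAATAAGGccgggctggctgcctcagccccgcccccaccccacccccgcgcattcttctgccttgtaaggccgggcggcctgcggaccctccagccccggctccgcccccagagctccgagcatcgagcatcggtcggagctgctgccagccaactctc
A match describes these letters in this window and nothing about binding in these cells. The ATF4 list and the contractile and SRF list hold known targets of these factors. An excess of the elements over all genes was therefore likely in advance and is no result of these arrays. The shares of all genes are over every gene with a promoter entry, not over the genes tested.

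Contractile and SRF target genes were lower at 240 min. Of 23 measured members, 18 fell and 1 rose (29.6% and 19% of all genes), 10 fell under all 5 scalings, and the median change was -0.41. Csrp1, an LIM protein that links actin bundles, read 1.75, 1.81 and 1.86 at 30 min and 0.85, 1.0 and 0.65 at 240 min (1.96-fold lower, adjusted p = 7.42e-10). Myl9, the regulatory light chain of smooth muscle myosin, read 1.36 and 1.39 at 30 min, where 1 array's spot was an outlier and was left out of the fit, and 0.40, 0.43 and 0.50 at 240 min (log2 change -0.93). Actg2, the enteric smooth muscle actin, read 1.88, 1.94 and 1.93 and then 1.22, 1.30 and 1.07. Synpo2, an actin-binding Z-disc protein, went from -2.84, -2.83 and -3.06 to -3.56, -3.43 and -3.43. The ranges of the 2 times were separate in each of these genes. Smooth muscle actin itself, Acta2, fell by 0.41, calponin Cnn1 by 0.52 and smooth muscle myosin Myh11 by 0.48, all under the 5 scalings, and these 3 are named after their values were seen. Cald1, which encodes caldesmon, was the member that rose (0.50), but its change was -0.02 by the Feature Extraction ratio. In wildtype controls 19 members fell and 1 rose (35.6% and 27.9% of all genes), with a median of -0.60. The change in CHIP null was above that in wildtype, less negative, for 11 members and below it for none (9.14% and 8.92% of all genes). For Myl9 the changes were -0.93 and -1.73 (difference 0.80, adjusted p = 1.76e-06). Of those 11 differences, 2 were called under all 5 scalings. Fhl1, another LIM protein of muscle, is not on the list and fell from -0.61, -0.62 and -0.50 to -1.76, -1.78 and -1.70 (2.25-fold).

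**Figure D1:**
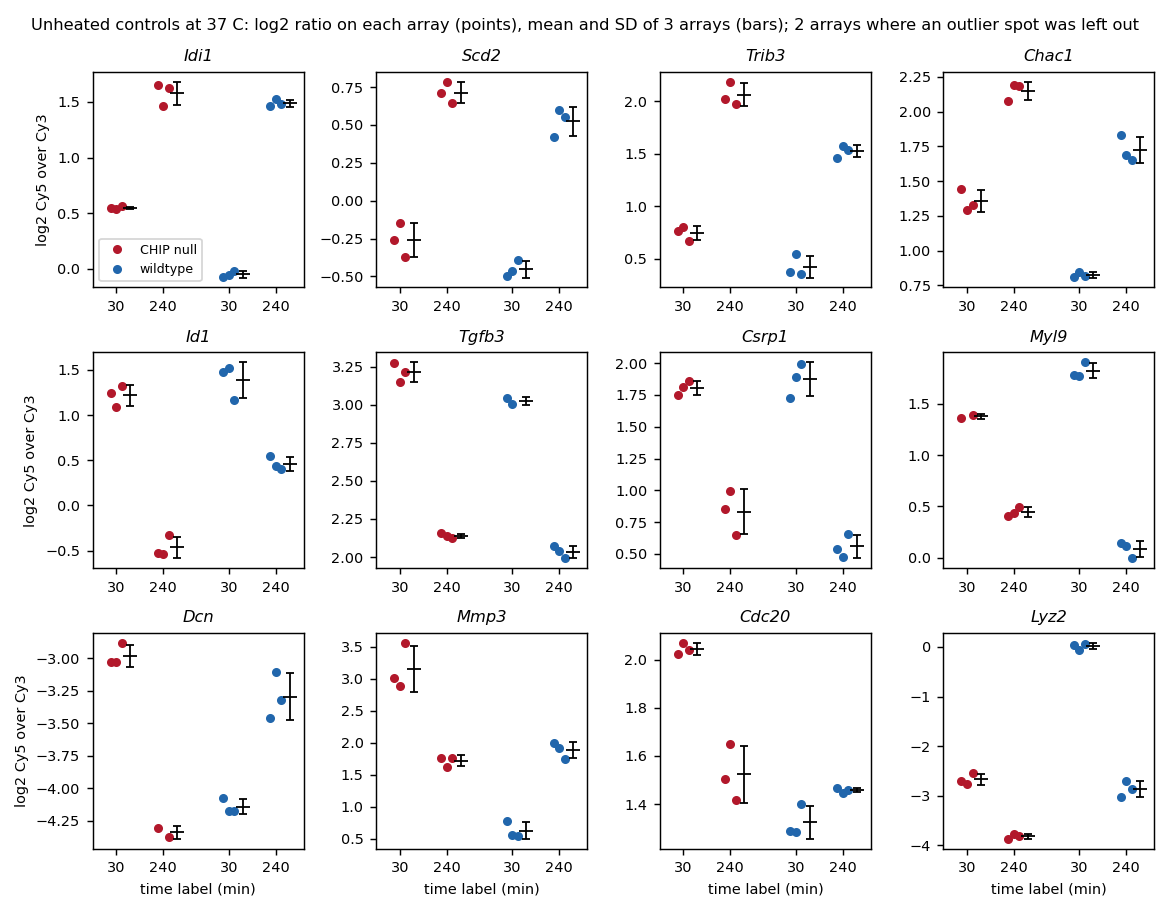
Log2 ratio of Cy5 over Cy3 of 12 genes on each unheated control array (points; CHIP null in red, wildtype in blue) at the 30 and 240 min labels, with the mean and SD of the arrays beside them; each panel has its own vertical scale. In CHIP null cells Idi1, Scd2, Trib3 and Chac1 are higher at 240 min and the other 8 genes are lower, without overlap, while Dcn, Mmp3 and Cdc20 have higher means at 240 min in wildtype.

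The ID genes, targets of BMP signalling that encode inhibitors of basic helix-loop-helix factors, fell together. Id1 read 1.25, 1.09 and 1.32 at 30 min and -0.53, -0.54 and -0.33 at 240 min, a 3.21-fold fall (log2 change -1.68, SE 0.131, adjusted p = 1.61e-10). Id3 went from 1.96, 1.85 and 1.83 to 0.73, 0.81 and 0.71 (2.19-fold). Id2 went from -0.65, -0.75 and -0.62 to -1.52, -1.55 and -1.42, and Id4 from 1.61, 1.58 and 1.75 to 0.72, 0.63 and 0.80. No range overlapped, and all 4 genes fell under the 5 scalings. The other Id1, Id2 and Id4 probes fell by 1.46, 0.80 and 0.60. The wildtype changes were -0.93 for Id1, -0.75 for Id2, -0.97 for Id3 and -0.63 for Id4. The fall of Id1 was larger in CHIP null (difference -0.75, adjusted p = 0.00399), though this difference was not called under every scaling, and the differences of the other three genes did not pass. Heated CHIP null cells showed changes of -1.50 for Id1 and -1.31 for Id3.

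The lists that hold the ID genes moved in both directions otherwise. Of 36 immediate early genes, which serum and growth factors induce within minutes, 10 rose and 13 fell, with 2 and 5 under all scalings and a median of 0.02. Myc, which drives growth and ribosome production, rose from 0.50, 0.43 and 0.57 to 1.36, 1.05 and 1.31 (1.67-fold, log2 change 0.74), against 1.14 in wildtype (difference adjusted p = 0.00816). Of 44 growth factor and TGF-beta genes, 16 rose and 13 fell, with 6 and 7 under all scalings. Tgfb3, one of the TGF-beta ligands, fell from 3.28, 3.15 and 3.22 to 2.16, 2.14 and 2.12 (2.11-fold, log2 change -1.07, adjusted p = 9.70e-13). Igfbp4, which binds insulin-like growth factors, went from -0.49, -0.42 and -0.58 to -1.46, -1.38 and -1.40. Wnt4, a WNT ligand, went from -0.04, -0.03 and -0.01 to -0.71, -0.58 and -0.72, and its wildtype change was -0.06 (difference adjusted p = 0.000204).

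Slpi, a secreted inhibitor of leukocyte elastase, fell furthest of all named genes, from 0.19, 0.34 and 0.67 to -1.5, -1.65 and -1.61 (3.97-fold, log2 change -1.99, SE 0.0949, adjusted p = 1.04e-14). Its wildtype change was -0.46, and the difference of -1.53 passed (adjusted p = 1.22e-09). Mmp3, the metalloproteinase stromelysin 1, read 3.01, 2.88 and 3.56 at 30 min and 1.77, 1.62 and 1.77 at 240 min in CHIP null cells. In wildtype it read 0.78, 0.56 and 0.55 and then 2.0, 1.92 and 1.74. Its log2 change was thus -1.43 in CHIP null (2.70-fold lower) and 1.26 in wildtype (difference -2.69, SE 0.179, adjusted p = 4.80e-12). Dcn, the collagen-binding proteoglycan decorin, read -3.03, -3.03 and -2.88 at 30 min and -4.30 and -4.37 at 240 min, where the second array's spot was an outlier and was left out. Its wildtype arrays went up, from -4.07, -4.18 and -4.17 to -3.46, -3.11 and -3.32 (difference -2.20, adjusted p = 9.63e-12). The CHIP null and wildtype ranges of Dcn and Mmp3 did not overlap at 30 min.

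Counted by list, 16 of 39 matrix proteins other than collagens fell and 7 rose (29.6% and 19% of all genes), with 7 and 4 under all scalings and a median of -0.09. Prelp, a leucine-rich proteoglycan, went from -0.16, -0.21 and -0.26 to -1.21, -1.26 and -1.27, and Comp, the cartilage oligomeric matrix protein, from -1.41, -1.37 and -1.26 to -2.33, -2.22 and -2.21. Postn, periostin, went the other way, from -2.74, -2.67 and -2.66 to -1.90, -2.0 and -1.90. Of 27 collagen genes, 6 rose and 11 fell, with 3 and 2 under all scalings. The fibrillar collagen gene Col3a1 rose from -4.16, -4.11 and -4.33 to -3.37, -3.57 and -3.33, while a different Col3a1 probe had a change of -0.12, and Col11a2 fell by 0.75. Of 18 metalloproteinases and TIMPs, 9 fell and 2 rose, with 3 and none under all scalings and a median of -0.21. Mmp13, a collagenase, fell by 0.81 but had a change of -0.09 from Cy5 alone, and Mmp9, a gelatinase, fell by 0.58 under all 5 scalings. Timp1, the inhibitor of these proteases, read 3.92, 3.78 and 3.72 at 30 min and 3.24 and 3.23 at 240 min, with the third array's outlier spot left out (log2 change -0.57).

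The cells carried fibroblast markers at both times. Of 17 such markers, 15 were well above background on all 3 arrays at 30 min and 16 at 240 min. In the time comparison 10 rose and 5 fell, with 7 and 2 under all 5 scalings and a median of 0.31. Vim, the intermediate filament vimentin, rose from 0.47 and 0.40, with the third spot left out, to 1.07, 1.13 and 1.41. The 5 that fell were Dcn, Lum (-0.63), Thy1 (-0.47), Prrx1 (-0.39) and Fap (-0.20). The change of Fap turned to 0.22 from Cy5 alone and lost its call without replicate 2 of either time (adjusted p up to 0.0928). The proteoglycans decorin and lumican thus moved against vimentin and the main Col3a1 probe of the same list. A different Col3a1 probe, given above, did not rise. Less RNA per cell and fewer cells of a type cannot be told apart in such bulk samples.

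**Figure D2:**
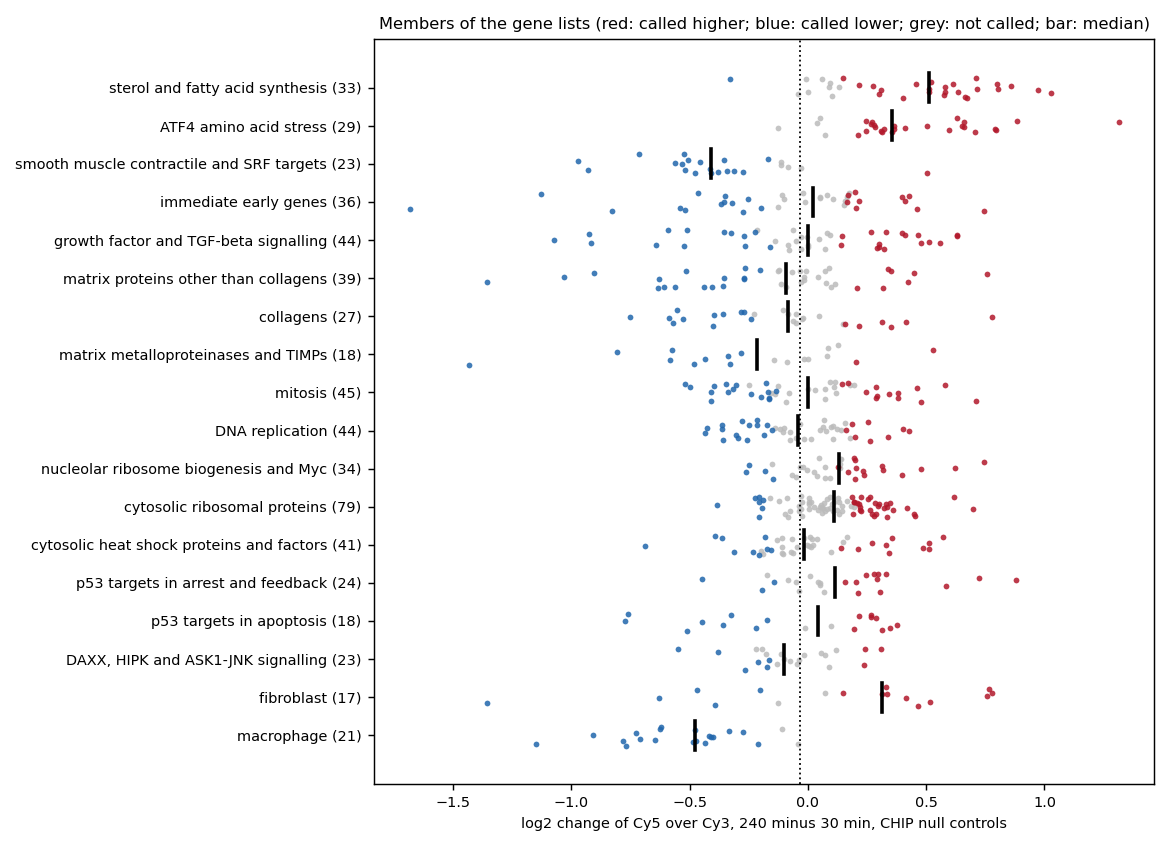
Log2 change at 240 minus 30 min in CHIP null controls of every measured member of 18 gene lists (points; red called higher, blue called lower, grey not called), with the median of each list (bar) and the median of all genes tested (dotted line, -0.03); the number measured is in brackets. The medians of sterol synthesis (0.51), ATF4 targets (0.35) and fibroblast markers (0.31) lie to the right, and those of contractile genes (-0.41) and macrophage markers (-0.48) to the left.

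Cell cycle genes were mixed in CHIP null cells and mostly higher in wildtype. Of 45 mitosis genes, 13 rose and 16 fell in CHIP null (19% and 29.6% of all genes). Under all scalings 1 rose and 4 fell. The median of 0.00 ranged from -0.24 to 0.04 over the 5 scalings. In wildtype 38 rose and 1 fell (27.9% and 35.6% of all genes), with a median of 0.41. The difference was called lower in CHIP null for 31 members and higher for 1 (8.92% and 9.14% of all genes), and 19 of the 31 held under all scalings. Cdc20, which activates the anaphase-promoting complex, read 2.02, 2.07 and 2.04 at 30 min and 1.5, 1.65 and 1.42 at 240 min in CHIP null, and 1.29, 1.28 and 1.40 and then 1.47, 1.45 and 1.46 in wildtype (difference -0.66, adjusted p = 7.45e-07). At 30 min the CHIP null arrays were thus above all wildtype arrays, and at 240 min the ranges of the genotypes overlapped. Prc1, a microtubule bundler of cytokinesis, went from 2.13, 2.12 and 2.25 to 1.70, 1.67 and 1.62 in CHIP null and had a wildtype change of 0.13 (difference adjusted p = 8.58e-06). Anln, the contractile ring protein anillin, and Bub1, a spindle checkpoint kinase, rose in CHIP null by 0.71 and 0.58, with no called difference from wildtype.

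The same contrast held for DNA replication and the nucleolus, and the shares of all genes are those given for mitosis. Of 44 replication genes, 8 rose and 15 fell in CHIP null (1 and 3 under all scalings, median -0.04), while 38 rose and 1 fell in wildtype (median 0.39). The difference was lower in CHIP null for 32 and higher for none, 23 of them under all scalings. Ccne1, the cyclin that starts S phase, fell by 0.43 in CHIP null, though a different probe of it had a change of 0.23. Mcm4, a subunit of the replicative helicase, rose by 0.40 against 0.79 in wildtype. Of 34 genes of nucleolar ribosome production and Myc, 14 rose and 4 fell in CHIP null (4 and none under all scalings, median 0.13, but -0.01 by the Feature Extraction ratio), and 31 rose and none fell in wildtype (median 0.46). The difference was lower in CHIP null for 24 and higher for none, 10 of them under all scalings. Dkc1, the pseudouridine synthase dyskerin, rose by 0.62 and its partner Gar1 by 0.48. In heated CHIP null cells 25 mitosis genes rose and 8 fell, and 22 replication genes rose and 10 fell (24.3% and 33.7% of all genes).

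Cytosolic ribosomal protein genes rose more often than they fell, by small amounts. Of 79 measured members 30 rose and 7 fell (19% and 29.6% of all genes), 13 rose and none fell under all scalings, and the median was 0.11. Rps23 went from -0.12, 0.09 and -0.22 to 0.63, 0.52 and 0.70, and Rps12 from 0.38 and 0.31, with the third spot left out, to 0.89, 0.84 and 1.15. A different Rps12 probe had a change of -0.03, and ribosomal protein genes share sequence with many pseudogenes. The Cy3 channel, which carries only reference RNA, was called lower for 27 and higher for 10 of these 79 genes (16.2% and 13.3% of all genes). In heated CHIP null cells 29 members fell and 11 rose, where 33.7% of all genes fell and 24.3% rose.

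**Figure D3:**
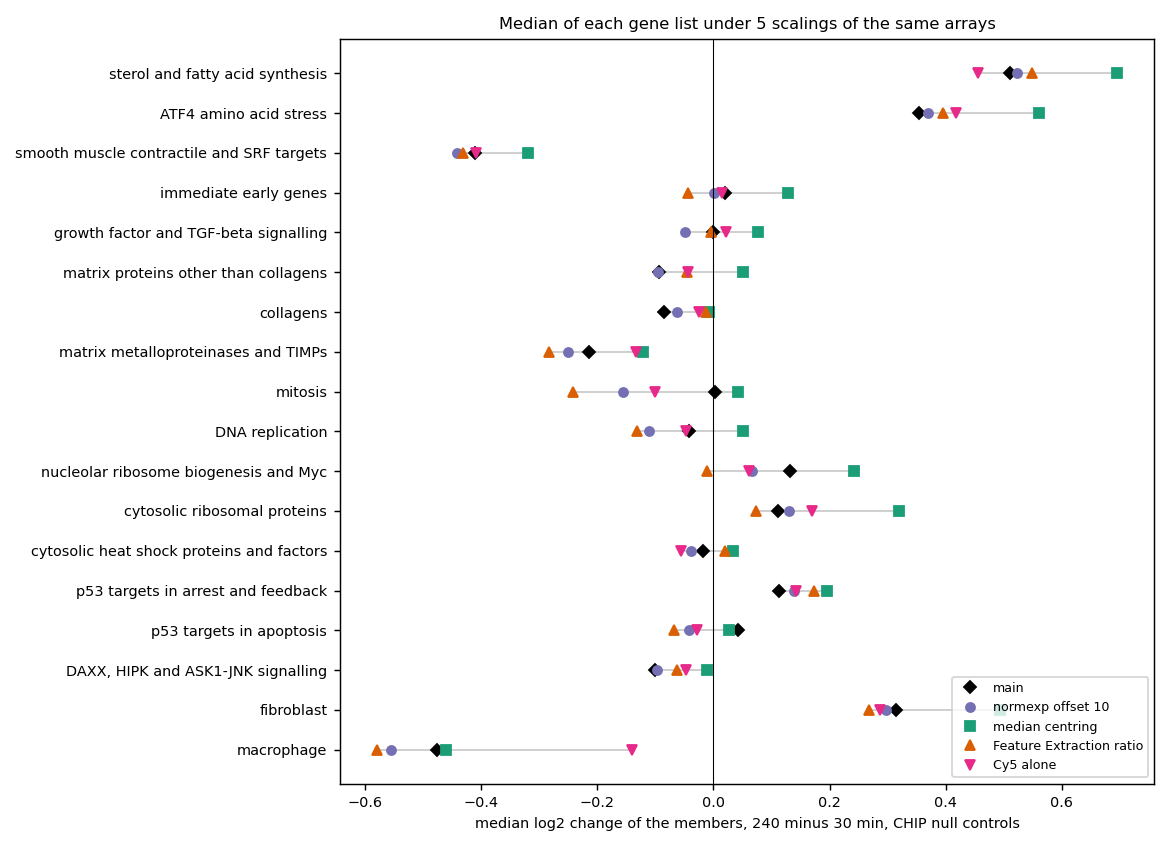
Median log2 change, 240 minus 30 min in CHIP null controls, of the members of 18 gene lists under 5 scalings of the same 6 arrays (1 symbol a scaling). The medians of sterol synthesis, ATF4 targets, fibroblast markers and contractile genes keep their side of 0 under all 5, the median of the macrophage markers shrinks from -0.48 to -0.14 from Cy5 alone, and that of the mitosis genes lies on both sides of 0.

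The genes that the series is built on moved little. The Stub1 probe read -2.12, -1.94 and -2.04 at 30 min and -2.43, -2.14 and -2.33 at 240 min in these CHIP null cells (log2 change -0.27, adjusted p = 0.00368), was well above background on all 6 arrays, and had a change of 0.04 from Cy5 alone. Where the probe lies relative to the deleted part of Stub1 is unstated in the labels and files, so that it is no check of the genotype. Daxx read -0.24, -0.25 and -0.34 and then -0.35, -0.36 and -0.26, overlapping ranges with no called change (log2 change -0.05, adjusted p = 0.540). Trp53, which encodes p53, fell by 0.17 (adjusted p = 0.0272), but the call was lost without 30 min replicate 2 or 3 or 240 min replicate 1 or 2 (adjusted p up to 0.142), and a mean over its probes gave 0.06. Hsf1, the heat shock factor, fell by 0.21 (adjusted p = 0.0161) and lost the call without 30 min replicate 2 or 3 or 240 min replicate 1 (adjusted p up to 0.0818). Hspa1a, the inducible HSP70 gene and the usual readout of a heat shock, read -0.53, -0.57 and -0.57 and then -0.79, -0.70 and -0.76 (log2 change -0.19, adjusted p = 0.696 with a spread pooled over heated arrays too).

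The lists around these genes moved in both directions. Of 41 cytosolic heat shock proteins and factors, 10 rose and 9 fell, with 7 and 2 under all scalings and a median of -0.02. Hspb1, the small heat shock protein HSP27, fell from -0.29, -0.21 and -0.35 to -1.13, -0.77 and -1.03, less than the -1.56 of wildtype (difference adjusted p = 7.25e-07). The HSP90 partners Chordc1 (0.57) and Ptges3 (0.51) and the HSP110 gene Hspa4l (0.51) rose. Among 24 p53 targets of arrest and feedback 12 rose and 3 fell, with 2 and 1 under all scalings and a median of 0.11. Plk2, a polo-like kinase, went from 0.72, 0.92 and 1.21 to 1.81, 1.68 and 1.99, Gtse1 rose by 0.72 and the growth arrest gene Gadd45a by 0.59, and Phlda3, a repressor of AKT that is also on the next list, fell by 0.45. Among 18 p53 targets of apoptosis 8 rose and 8 fell, with 1 and 4 under all scalings. Pdrg1, a prefoldin-like gene of that list, fell from 0.88, 0.99 and 0.96 to 0.17, 0.21 and 0.13, and Perp, a desmosomal effector of apoptosis, fell by 0.76 with a wildtype change of -0.04 (difference adjusted p = 4.93e-06). Of 23 genes of DAXX, HIPK and ASK1-JNK signalling 3 rose and 6 fell, none of them under all scalings. Mapk8, which encodes JNK1, fell by 0.55 but had a change of 0.09 from Cy5 alone and 0.01 by a different probe, the scaffold gene Mapk8ip3 fell by 0.38, and Mapk9, which encodes JNK2, rose by 0.31.

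Of the other genes with the largest rises, Fibin, a secreted protein of the fin bud and limb, went from -1.95, -2.03 and -1.95 to -0.79, -0.93 and -0.66 (2.27-fold, adjusted p = 1.36e-10). Plat, tissue plasminogen activator, went from -0.28, -0.24 and -0.24 to 0.96, 0.76 and 0.99 (2.22-fold), with a rise of 0.57 by a different probe. Pla2g4a, the phospholipase that releases arachidonic acid, rose by 0.81 and held under all scalings. Ptgs2, the cyclooxygenase COX-2 that acts on arachidonic acid, rose by 0.99 but had a change of 0.20 from Cy5 alone. Bcat1, an aminotransferase of branched-chain amino acids, rose by 0.84, against 1.30 in wildtype (difference adjusted p = 0.00987), and Pfdn4, a prefoldin subunit, by 0.98, neither of them under all scalings. Ppp3r1, the regulatory subunit of calcineurin, had a change of 0.87 but was not well above background on any 30 min array, so that the size of the change is not known, and 2 other probes of it had changes of 0.06 to 0.14. Clock genes moved in small steps and in both directions, with 4 of 14 called higher and 5 lower. The activator Arntl was higher by 0.51 and Bhlhe40 by 0.47, and Tef was lower by 0.45 and Cry2 by 0.42. Under all scalings 2 clock genes were higher and none lower, so that the falls of Tef and Cry2 did not hold under all of them.

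Ifi27l2b, an interferon-inducible gene, fell from 0.29, 0.32 and 0.23 to -0.94, -0.90 and -1.01 under all scalings. The other large falls in this paragraph were of genes with ratios below 0 at 30 min, and these are given with their change from Cy5 alone. Mal2, a membrane-trafficking protein, fell from -1.34, -1.32 and -1.31 to -2.53, -2.81 and -2.66, but its change from Cy5 alone was -0.23. Stfa2, a cystatin-like protease inhibitor, went from -2.0, -2.25 and -2.29 to -3.56, -3.64 and -3.62, was not well above background on any 30 min array, and had a change of 0.00 from Cy5 alone. Pzp and Crygf had main changes of -1.31 and -1.21 and changes of 0.02 and 0.24 from Cy5 alone, and Pzp was not well above background on any 30 min array. Srgn, the proteoglycan serglycin, and Csta2 had main changes of -1.14 and -1.21 and changes of -0.11 and -0.15 from Cy5 alone. Srgn was not well above background on any 240 min array. Over all genes, those with a mean ratio under -2 at 30 min were called lower in 383 of 454 cases (84.4%), with a median change of -0.52, in the main values, and in 76 cases (16.7%), with a median of -0.10, by the Feature Extraction ratio. Dcn, Synpo2, Mmp13, Col11a2 and Lyz2, described in other paragraphs, also had a mean ratio under -2 at 30 min. Comp lay between -2 and -1. Of all genes at that level, 70.9% were called lower in the main values and 11.1% by the Feature Extraction ratio. The median Cy3 signal minus background rose between the scan sets as given above, and its part in these falls was not tested.

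Markers of the macrophage, adipocyte and endothelial lineages mostly fell in the main values, in which 29.6% of all genes fell. Genes with low ratios fell more often than that. Of all genes with a mean ratio of -2 to -1 at 30 min, 70.9% were called lower, with a median change of -0.36. Under -2 it was 84.4%, with a median of -0.52. The mean ratio on the 30 min arrays was -2.92 to -2.73 for the adipocyte and -1.51 to -1.37 for the endothelial list. The counts below are to be read beside these shares. Of 21 macrophage markers 19 fell and none rose, 7 under all scalings, and their mean ratio was -1.15 to -1.06 on the 30 min arrays and -1.69 to -1.60 on the 240 min arrays; 13 and 16 of them were well above background on all 3 arrays of the respective time. Lyz2, the macrophage lysozyme, fell from -2.70, -2.75 and -2.55 to -3.87, -3.77 and -3.82, by 0.35 at a different probe, and had a change of 0.00 in heated CHIP null cells. Lyz1 fell by 0.91, the protease gene Ctss by 0.78 and the leukocyte antigen gene Cd52 by 0.77. In wildtype all 21 macrophage markers fell, with a change of -2.88 for Lyz2 (difference adjusted p = 1.07e-11). All 12 measured adipocyte markers fell in the main values (median -0.48), 1 of them under all scalings, and their median was 0.08 by the Feature Extraction ratio. The endothelial markers gave 12 of 13 lower (median -0.46), also with 1 under all scalings, and a median of -0.03 by that ratio. What part other cell types had in the results was not tested.

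The time change in CHIP null controls was set against that of the wildtype controls, which share no array with them. Both genotypes were in the same scan set at each time label, and the part of the scan sets in the shared calls was not tested. The wildtype arrays gave 8571 called genes (63.6%). Of the 6559 genes called in CHIP null, 5160 were called the same way in wildtype, which is 78.7% of the first list and 60.2% of the second, and 213 were called the opposite way. The difference itself was called for 2436 genes (18.1%), and under all 5 scalings for 699, of which 143 were called in both genotypes with opposite signs. Among the genes with the largest differences, Penk, the opioid precursor proenkephalin, read -3.18, -3.04 and -2.91 and then -3.76, -3.75 and -3.77 in CHIP null, and -3.58, -3.74 and -3.48 and then -1.89, -1.64 and -1.94 in wildtype. The matrix proteoglycan gene Lum and the mesothelial antigen gene Msln had changes of -0.63 and -0.65 in CHIP null and 1.21 and 1.24 in wildtype. Il1rl1, the receptor of interleukin 33, rose by 0.79 in CHIP null and 3.26 in wildtype, although the CHIP null change was -0.44 by the Feature Extraction ratio. Bst2, the antiviral protein tetherin, changed by -0.21 in CHIP null, a call lost without 240 min replicate 2 (adjusted p = 0.0677), and by 1.56 in wildtype. In the other direction Ncan, a neural proteoglycan, changed by -0.39 in CHIP null, and in wildtype went from 1.48, 1.27 and 1.30 to -2.25, -2.22 and -2.44. The glial genes Fabp7 and Mlc1 had no called change in CHIP null (-0.05 and 0.09, with 0.57 called for Fabp7 from Cy5 alone) and changes of -2.73 and -2.53 in wildtype. Marco, a macrophage scavenger receptor, Gstm1, a glutathione transferase, and Ckb, a creatine kinase, changed by -0.71, -0.32 and -0.47 in CHIP null and by -2.92, -2.44 and -2.18 in wildtype. The small heat shock gene Hspb8 had a change of 0.01 in CHIP null, without a call, and -1.73 in wildtype. The metallothionein gene Mt2 fell by 0.45 and 1.02.

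Sex-linked RNA moved with the time label in the wildtype controls. Xist, the RNA that silences an X chromosome, read -1.50, -1.43 and -1.49 and then -1.90, -1.69 and -1.66 in CHIP null (log2 change -0.28, adjusted p = 0.0363, lost without any 1 of the 30 min arrays or 240 min replicate 1, with adjusted p up to 0.177), and -3.31, -3.49 and -3.01 and then -1.87, -1.64 and -1.82 in wildtype. The Y-linked Ddx3y and Eif2s3y were not well above background on any CHIP null array. In wildtype Ddx3y went from 0.47, 0.55 and 0.44 to -1.05, -1.02 and -0.88, and Eif2s3y from 0.16, 0.36 and 0.20 to -1.59, -1.5 and -1.61. Every difference between the genotypes therefore sets the CHIP null change against that of wildtype cultures whose sex-linked RNA also differed between the labels; its part in those differences was not tested.

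**Figure D4:**
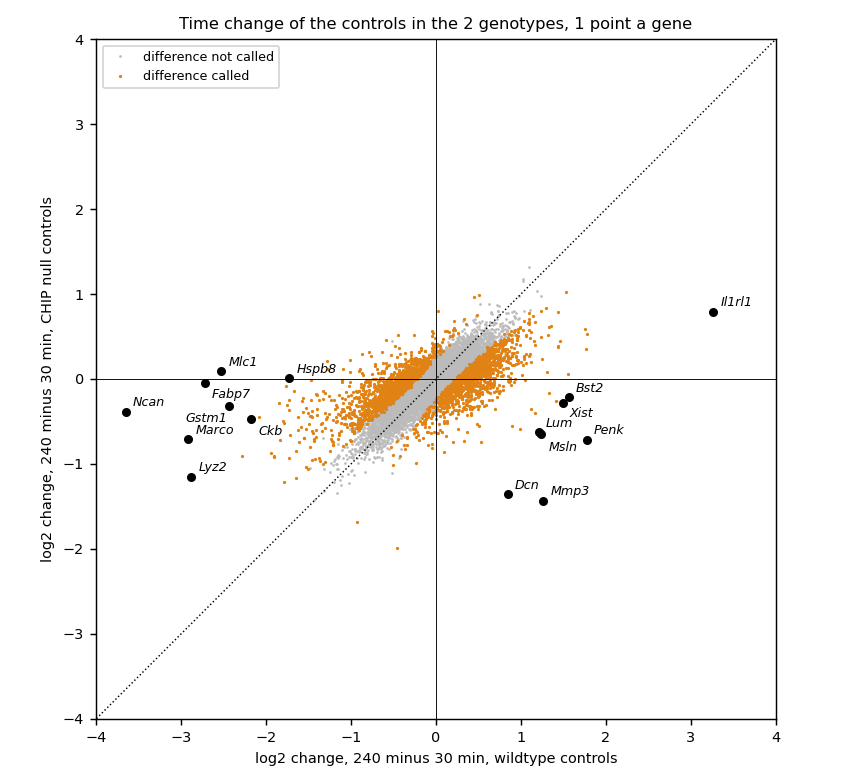
Log2 change at 240 minus 30 min in wildtype controls (horizontal) and CHIP null controls (vertical), 1 point a gene, with genes whose difference passed the test in orange and the 16 genes with the largest named differences in black; the dotted line marks equal changes. Most genes lie along the line (correlation 0.76 over 13486 genes, a description only), Mmp3, Dcn, Penk, Lum and Msln lie below it with opposite signs, and Ncan, Fabp7, Mlc1, Marco and Lyz2 lie to the far left.

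Heated CHIP null cells, also compared at 240 against 30 min and on other arrays of the same scan sets, called 7820 genes (58%). Of the CHIP null control calls, 5310 were called the same way there, 81.0% of the control list and 67.9% of the heated list, and 19 the opposite way. Slpi changed by -1.90, Id1 by -1.5, Dcn by -1.74, Trib3 by 1.16 and Idi1 by 1.05 in the heated cells, against -1.99, -1.68, -1.36, 1.31 and 1.03 in the controls, and Hspa1a, which had no called change in the controls, had a change of 1.59.

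The reference channel itself was compared between the same 6 arrays, since it holds no RNA of the cells. After quantile normalization its Cy3 signal was called for 3987 genes (29.6%), 1797 (13.3%) higher and 2190 (16.2%) lower, and for 2284 genes when replicate 1 of the 30 min arrays was left out. Of the genes called in the ratio, 1248 were called the same way in Cy3 and 831 the opposite way, and the correlation of the changes over genes was 0.02. Among the genes described above, the Cy3 changes of Slpi, Idi1, Trib3, Csrp1, Id1 and Dcn were -0.17, -0.06, 0.03, 0.02, 0.28 and 0.05.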

How the data were processed

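RNA of 24 mouse embryonic fibroblast cultures was measured on 2-colour Agilent whole mouse genome arrays (G4112F), with the cells in Cy5 and the reference RNA in Cy3 on every array, per the labels. The authors deposited scanner files of Feature Extraction 9.1.3.1, per the file headers, with spot intensity and a log10 ratio of red over green, and a value table whose log2-like values equal that log10 ratio divided by ln 2 within 0.001 for at least 99.25% of its probes in every control column; how that table was centred is unstated. From the intensity values, background was corrected with normexp (offset 50), ratios were loess-normalized within arrays (limma 3.58.1, R 4.3.3), control spots were given no weight, 333 outlier spots were left out, and the brightest probe of each gene was taken. A gene was tested if in 1 or more of the 8 groups its probe exceeded background in Cy5 (the scanner's well-above-background mark) on each of the 3 arrays. A spot left out drops that array from the gene's fit. Of 41174 probes, 22951 were named by accession, 6659 by symbol and 3109 by synonym from RefSeq, and 8455 kept the file's name.

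The limma fit used all 24 arrays with a mean for each group, leaving 16 residual degrees of freedom. Benjamini-Hochberg adjustment ran over all 13486 genes at 0.05. On simulated data for the time comparison over 13371 genes, 50 genes were changed at each size, with independent noise and no effect of slide or scan set. Of the genes changed by 0.4, 90% were recovered, and of those changed by 0.2 (log2), 18%. Far more genes were called in the real data, where the adjusted threshold is therefore looser, so that these shares are not the sensitivity of the real comparison. The precision is limited by 3 arrays a group. Named genes were the 14 largest rises and 14 largest falls with separate ranges, up to 4 called members of each list, the genes of the study's question, the sex-linked genes and the 8 largest genotype differences in each direction. The members and the 40 gene lists (29 pathways and 11 cell type marker lists) were chosen with earlier results of these data known. The count under 5 scalings was added after seeing the data. Some genes that the rule names are not reported here. Kdm5d and Uty, also on the rule's list, were not among the genes tested. Same-numbered replicates were not treated as pairs, since no label ties them.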

Additional observations from a re-analysis of the deposited data

Results flagged for a closer look

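The test of the difference between the genotypes passed for the genes below, each with a time change in the CHIP null controls that differed from that in the wildtype controls. All values are log2 changes in CHIP null minus log2 changes in wildtype. The largest negative differences were -2.69 for Mmp3, -2.49 for Penk, -2.47 for Il1rl1, -2.20 for Dcn, -1.89 for Msln, -1.84 for Lum, -1.78 for Bst2, -1.77 for Xist, -1.53 for Slpi, -1.17 for Ccl7 and -1.01 for Hoxd13. All of these were called under the 5 scalings. Of the interferon-inducible genes Ifi27 differed by -0.94 and Gbp3 by -0.47. The cell cycle and histone genes differed by -0.66 for Cdc20, -0.63 for Prc1, -0.43 for H4c14, -0.39 for Mcm4 and -0.39 for Ccne1, with 0.86 for H2bc12. For Myc the value was -0.40 and for Gar1 -0.37.

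Sterol genes differed by -0.52 for Ebp, -0.51 for Idi1, -0.43 for Msmo1 and -0.37 for Fdps. In the amino acid group the differences were 0.51 for Gpt2, 0.38 for Psph and 0.34 for Sars, and -0.46 for Bcat1. Contractile genes differed by 1.27 for Cnn1, 0.80 for Myl9, 0.55 for Acta2, 0.48 for Fhl1, 0.35 for Synpo2, 0.34 for Csrp1 and 0.30 for Actg2. Among signalling, matrix and p53 genes the values were -0.75 for Id1, -0.72 for Perp, -0.58 for Prrx1, -0.58 for Wnt4, -0.48 for Comp, 0.27 for Postn, 0.31 for Hspa4l, 0.35 for Mapk8ip3, 0.36 for Timp1, 0.44 for Pdrg1, 0.48 for Ptgs2 and 0.50 for Prelp. Stress and lysosomal genes differed by 0.54 for Psap, 0.57 for Mt2, 0.57 for Csta2, 0.75 for Ctsd, 0.87 for Hspb1, 1.74 for Hspb8 and 2.13 for Gstm1. The values of the Y-linked Ddx3y and Eif2s3y were 1.03 and 1.32, but neither was well above background on any CHIP null array, so that their CHIP null change was not measured and these are not measured differences. Myeloid genes differed by 0.29 for Cd52, 1.38 for Lyz1, 1.73 for Lyz2 and 2.21 for Marco. Single glial and related genes differed by 1.71 for Ckb, 2.63 for Mlc1, 2.68 for Fabp7 and 3.27 for Ncan. As a list, the 25 neural and glial markers went both ways. The difference was higher in CHIP null for 7 and lower for 4 (9.14% and 8.92% of all genes). Under all scalings it was higher for 4 and lower for 2, and the median was -0.04. The causes of these differences were not tested.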

How the results depend on the processing

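The Feature Extraction ratio gave 3050 called genes for the time comparison, with 1545 higher and 1505 lower. The value table under its own labels, fitted on the control columns only, gave 3305, with 1557 higher and 1748 lower. Its directions are opposite to those of the scanner files (correlation of the differences -0.9986), so its higher genes correspond to lower genes here. Median centring gave 2432 lower and Cy5 alone 2558 lower. Under 5 scalings together, a count added after seeing the data, 1176 genes were called, and 699 in the difference between genotypes, for which median centring alone gave 784. Median centring of Cy3 called 11677 genes in the reference channel. Leaving out 1 array gave 5504 to 6389 called genes, 2007 to 2544 higher, 3487 to 3845 lower and 489 to 736 over 1.5-fold; for the difference the range was 2044 to 2381, for wildtype 7798 to 8209, for heated CHIP null 7053 to 7574 and for the reference channel 2284 to 3934. Signs turned from Cy5 alone for Stfa2 (0.0048), Pzp (0.021), Crygf (0.24), Mapk8 (0.089), Stub1 (0.037), Daxx (0.041), Hspa1a (0.032), Xist (0.11), Ddx3y (0.0041), Fabp7 (0.57), Fap (0.22), Gbp3 (0.068), Gatm (0.11) and Hspb8 (-0.16). By the Feature Extraction ratio they turned for Pzp (0.27), Daxx (0.025), Fabp7 (0.21), Il1rl1 (-0.44), Cald1 (-0.023), Fap (1.06), Ccl7 (-0.20), Hoxd13 (-0.55) and Gatm (0.54). With offset 10 they turned for Fabp7 (0.21) and Fap (0.10), with median centring for Daxx (0.12), Fabp7 (0.21) and Phgdh (0.036), and with the mean of a gene's probes for Trp53 (0.058) and Phgdh (0.015). The uncalled Hspb8 lay between -0.037 and 0.048 without 1 array. The causes were not tested. With replicate number as a block, 6656 genes were called for the time comparison and 2515 for the difference, and no call of a named gene changed; same-numbered arrays had correlated deviations of 0.04, 0.26 and 0.02. Slide as a random block gave 6205. Genes not well above background at a time have no exact size of change, and 3 arrays a group limit the precision.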

Other observations

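Counts of members called under all 5 scalings follow those of the main values. Over all genes, 19% rose and 29.6% fell in CHIP null, and 27.9% rose and 35.6% fell in wildtype. The difference was called higher in CHIP null for 9.14% and lower for 8.92% of all genes. Of 74 subunits of oxidative phosphorylation 28 fell and 6 rose, but 1 fell and 3 rose under all 5 scalings (median -0.09); Cox6b1 fell by 0.49, with -0.14 from Cy5 alone. Of 24 ER chaperones and genes of the unfolded protein response 9 rose and 1 fell (2 and 0 under all scalings), led by the ER chaperone Hsp90b1 (0.56) and the disulphide isomerase Pdia4 (0.45), which both rose under all scalings. Of 35 genes of glycolysis and hypoxia 10 rose and 5 fell (4 and 0), with Hif1a (0.51) and the glucose transporter Slc2a1 (0.37) among those that rose under all scalings. Of 31 proteasome subunits 7 rose and 6 fell (4 and 2), with Psma3 at 0.41 and Psmb7 at -0.41. Among 17 CHIP clients and chaperone partners 3 rose and 3 fell (2 and 0), and the HSP70-interacting protein gene St13 (0.49) and the ubiquitin-conjugating enzyme gene Ube2d3 (0.46) rose under all scalings.

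Of 40 lysosomal genes 8 rose and 12 fell in CHIP null (3 and 2) and 4 rose and 25 fell in wildtype. The difference was called for 19, all higher in CHIP null (2 under all scalings). Asah1 rose by 0.53, and Psap and Ctsd fell by 0.43 and 0.41. Of 28 metallothionein and NRF2 genes 1 rose and 15 fell (0 and 1), and 15 differed from wildtype, all higher in CHIP null (4 under all scalings). Gsta1 fell by 0.99, but its change from Cy5 alone was -0.0039. Of 34 interferon-stimulated genes 4 rose and 17 fell (2 and 2), and their median of -0.17 turned to 0.11 by the Feature Extraction ratio. In wildtype 18 rose and 8 fell, and the difference was lower in CHIP null for 16 and higher for 2 (10 and 1 under all scalings). Ifi27 fell by 0.74 under all scalings, while Gbp3 fell by 0.52 in the main values and had changes of -0.017 and 0.068 by the Feature Extraction ratio and Cy5 alone. Among 18 chemokines and cytokines 4 rose and 8 fell (0 and 3), and Ccl7 rose by 0.59, against 1.76 in wildtype, with -0.20 by the Feature Extraction ratio. Of 23 replication-dependent histone genes 3 rose and 6 fell (2 and 2), with H4c14 at -0.42 and H2bc12 at 0.39, and the difference was lower in CHIP null for 12 and higher for 4 (6 and 3). Of 23 HOX genes 3 rose and 2 fell (0 and 1), with Hoxd13 up by 0.45 against 1.46 in wildtype but at -0.55 by the Feature Extraction ratio. Of 17 imprinted growth genes 4 rose and 6 fell (1 and 2), with Igf2r at 0.45 and Gatm at -0.67, which turned to 0.54 by the Feature Extraction ratio. Of 14 clock genes 4 rose and 5 fell (2 and 0).

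Of the remaining marker lists, 7 of 10 cartilage and bone, 4 of 7 erythroid and hepatic, 10 of 13 mast and other blood cell, 16 of 25 neural and glial, 16 of 19 epithelial and mesothelial and 3 of 6 sex-linked markers were called lower. Under all 5 scalings 2, 0, 1, 0, 2 and 0 of them were. The mean ratio of each of these lists was below 0 on every 30 min array. In the main values, 70.9% of all genes with a mean ratio of -2 to -1 at 30 min were called lower, and 84.4% of those under -2. The sex-linked calls include Ddx3y and Eif2s3y, not well above background on any CHIP null array, so that their change was not measured. They also include Xist, whose call was lost without single arrays. Higher calls were 1 of the cartilage and bone and 2 of the neural and glial markers, none under all scalings, and none of the other 4 lists. The neural and glial median of -0.29 turned to 0.11 by the Feature Extraction ratio. Of 26 skeletal and cardiac muscle markers 3 rose and 11 fell, with 3 and 1 under all scalings, but 9 rose and 3 fell by the Feature Extraction ratio (median 0.12) and 8 rose and 6 fell from Cy5 alone.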
